A study of Mus musculus with 6 samples.

Results

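The genes described here encode the proteasome, found as every gene symbol in the count files made of Psm, a letter from a to g, a number and at most 1 further letter. The rule found 49 of 32531 named genes, of which 48 had enough reads to be tested. Reads had been counted by gene in RNA-seq libraries of mouse thalamus, 3 immunopurified (IP) and 3 Input. Both groups came from adult, untreated control mice of the line Cbln1-EGFP/Rpl10a (NIDA030), so the Input libraries carry the transgene too. In this line the ribosomal protein Rpl10a, fused to a green fluorescent protein, is made in cells chosen by Cbln1, a secreted synapse organiser. IP is the RNA recovered with the tagged ribosomes (translating ribosome affinity purification, TRAP), and Input is the material it was compared with. Both carry the same label for their molecule, RNA bound to ribosomes. The labels name the thalamus only, while the names of the deposited files point to the parafascicular nucleus, so the extent of the dissection is uncertain. Nothing in the labels says whether replicates came from separate animals, and p-values measure the spread between these libraries only.

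The proteasome is the large protease that degrades proteins tagged with ubiquitin. Its barrel-shaped core particle is built from alpha rings, which gate the entry, and beta rings, which hold the cutting sites. A regulatory particle caps the barrel. Its base holds ATPases that unfold the substrate, and its lid removes the ubiquitin. In immune cells, and in other cells exposed to interferon, the cutting subunits can be exchanged for immunoproteasome subunits that favour peptides for antigen presentation. In neurons the proteasome takes part in protein turnover at synapses.

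Assigned counts were 45256700 to 57385828 per IP library and 23929070 to 47741219 per Input library. Proteasome genes took 0.347 to 0.401% of them in IP and 0.330 to 0.335% in Input. Levels are given as CPM, the count of a gene relative to its library after scaling by the trimmed mean of M-values (TMM). Cbln1 itself averaged 1429 ± 67.8 CPM in the IP libraries, against 79.8 ± 9.64 CPM in the Input libraries (± SD, n = 3). The thalamic genes Tcf7l2 (2015 CPM in IP, 1124 in Input) and Slc17a6 (413 CPM in IP, 198 in Input) were abundant in both. Of lists of cell type markers, 12 of 12 neuronal genes were higher in IP, and 10 of 10 astrocyte, 10 of 10 oligodendrocyte, 11 of 14 microglial and 7 of 10 endothelial genes were lower. Of all genes tested, 23.3% were higher and 24.3% lower.

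Of the 48 proteasome genes tested, 32 were higher in IP at an adjusted p under 0.05 (edgeR's quasi-likelihood test), where 23.3% of all 16898 genes tested were. No proteasome gene was called lower, where 24.3% of all genes were, and at an unadjusted p under 0.05 the count was also 0. DESeq2 called 1 lower (Psmc5) and limma-voom 2 (Psmb8 and Psmb9), against 28.08 and 30.26% of all genes. Among genes averaging at least 5 CPM, 32 of the 44 proteasome genes were higher in IP, against 35.5% of 10020 protein-coding genes, of which 19.2% were lower. The median log2 fold change was 0.46 over the proteasome genes and -0.07 over all genes tested. Among genes averaging at least 5 CPM it was 0.46 over the proteasome genes and 0.19 over all protein-coding genes. Fold changes were modest: 3 proteasome genes were at least 2-fold higher and called (Psma2, Psmg3 and Psmg4), against 6.58% of all genes. For 35 of the 49 genes every IP value exceeded every Input value, as for 27.9% of all genes, and for 3 every IP value was below, as for 33.7% of all genes.

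**Figure D1:**
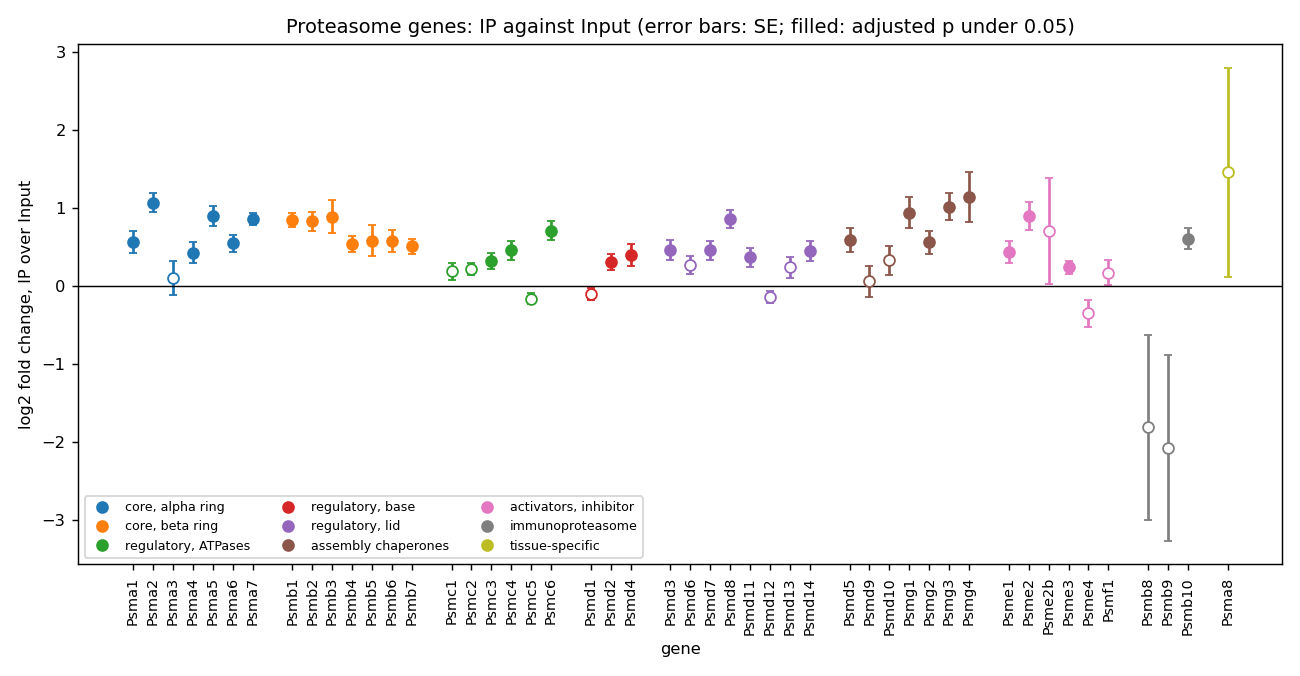
Log2 fold change (IP over Input, y axis) of each tested proteasome gene (x axis), grouped by role, with standard errors; filled points passed an adjusted p of 0.05. Core subunits lie between 0.10 and 1.07, regulatory subunits between -0.16 and 0.86, and Psmb8 and Psmb9 below 0 with wide errors.

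These counts depended on how libraries were scaled. Library totals called 12 proteasome genes higher and 4 lower, upper-quartile scaling 18 and 4, and a stricter filter (at least 1 CPM in all 6 libraries) 19 and 4. Of all genes, 14.55% were higher and 31.01% lower under library totals, and 17.08% and 29.48% under upper-quartile scaling. Under the stricter filter 25.23% were higher and 24.77% lower. The median of all genes moved with the scaling, to -0.25 under upper-quartile scaling and -0.31 under library totals. A change of scaling shifts all fold changes by nearly the same amount, so it can hardly move the proteasome genes relative to that median. They lay 0.53 higher under TMM, 0.53 under upper-quartile scaling and 0.54 under library totals. The genes kept did move this value. It was 0.29 under the stricter filter, which drops the weakly expressed genes, and 0.83 with no filter. Calls held under all 14 alternatives for 11 genes: Psma2, Psma5, Psma7, Psmb1, Psmb2, Psmb3, Psmc6, Psmd8, Psme2, Psmg1 and Psmg3.

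Of the core particle, 13 of 14 constitutive subunit genes were higher in IP, against 23.3% of all genes tested. The exception was Psma3. The median log2 fold change of the 14 was 0.58. Of the regulatory particle, 10 of 17 were higher, with a median of 0.32. Without passing the test, 3 (Psmc5, Psmd1 and Psmd12) lay lower in all IP libraries than in any Input library, an order that 33.7% of all genes showed. The regulatory calls were the less stable ones: 2 of 17 were left under upper-quartile scaling, library totals or the stricter filter, where 11, 6 and 11 core subunits were still called. Of all genes, 17.08, 14.55 and 25.23% were higher under these settings, each a larger share than 2 of 17. The difference between the core and regulatory medians was 0.26. It was between 0.23 and 0.40 under the alternatives, with the highest value without IP replicate 3.

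Scaling cancels when both particles are compared within a library. Summed over the 14 core genes, the level was 1495, 1565 and 1423 CPM in IP replicates 1 to 3, against 946, 914 and 902 CPM in Input. Summed over the 17 regulatory genes it was 1852, 2013 and 1877 CPM in IP, against 1701, 1630 and 1635 CPM in Input. The core sum was thus 0.807, 0.778 and 0.758 of the regulatory sum in the IP libraries, against 0.556, 0.560 and 0.552 in the Input libraries. Every IP library lay above every Input library, and the gap was several times the range within either group.

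**Figure D2:**
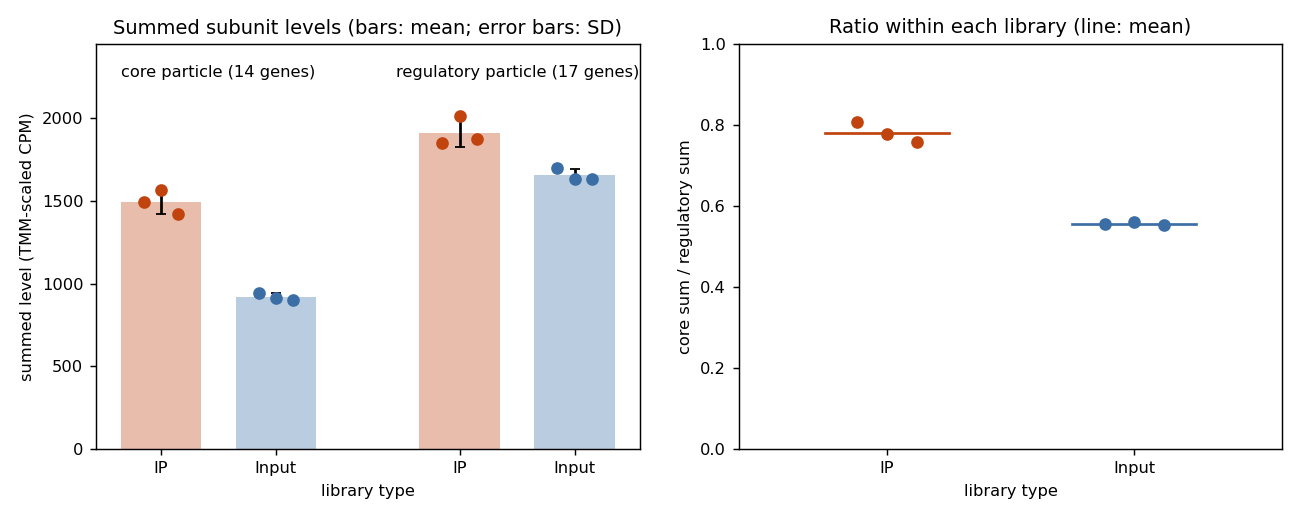
Left, summed TMM-scaled CPM of the 14 core and 17 regulatory particle genes (y axis) in IP and Input libraries (x axis), as points with mean bars and SD. Right, the core sum divided by the regulatory sum in each library, 0.758 to 0.807 in IP and 0.552 to 0.560 in Input.

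Transcript length moved with these results. Each gene was given the length of its principal GENCODE transcript, and those averaging at least 5 CPM were compared. Of genes tested, 87.6% matched a transcript. Among the 44 proteasome genes at that level the log2 fold change fell with length (Spearman's rho -0.59), as it did among all 10020 protein-coding genes (rho -0.32; both are across genes, which share libraries and are not replicates). Core transcripts had a median of 1163 bases (766 to 2911) and regulatory transcripts a median of 1636 bases (1316 to 3112). Up to 1000 bases the median log2 fold change was 0.88 over 8 proteasome genes, all 8 higher in IP, against 0.84 over all 449 genes of that length, 71.5% of them higher.

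In the longer classes the medians of proteasome genes lay on both sides of those of all genes. From 1001 to 1500 bases the median was 0.51 over 15 proteasome genes, 12 higher, against 0.56 over all 764 genes, 55.4% of them higher. From 1501 to 2000 bases it was 0.32 over 9 proteasome genes, 5 higher, against 0.42 over all 985 genes, 46% of them higher. From 2001 to 3000 bases it was 0.34 over 8 proteasome genes, 6 higher, against 0.25 over all 2152 genes, 36.7% of them higher. From 3001 to 5000 bases it was 0.17 over 3 proteasome genes, 1 higher, against 0.13 over all 3316 genes, 31.3% of them higher. Above 5000 bases the 1 proteasome gene, Psme4, was at -0.35 and not called, against a median of -0.08 over all 2354 genes, 22.7% of them higher.

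Few core and regulatory genes share a length class, and their difference within classes was not tested. From 1001 to 1500 bases the median was 0.55 for 6 core genes and 0.34 for 4 regulatory genes. From 2001 to 3000 bases it was 0.59 for 2 core genes and 0.42 for 4 regulatory genes. Those 2 core genes were the highest and lowest of the core, Psma2 (1.07) and Psma3 (0.10). The 4 regulatory genes, from 0.31 (Psmd2) to 0.71 (Psmc6), lay between them, so the 0.59 describes neither core gene. From 1501 to 2000 bases there was 1 core gene (0.85) beside 8 regulatory genes (0.28). Within each particle rho was near 0 (-0.06 over 14 core genes, -0.10 over 17 regulatory genes). The part of length in the difference between particles was not tested.

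**Figure D3:**
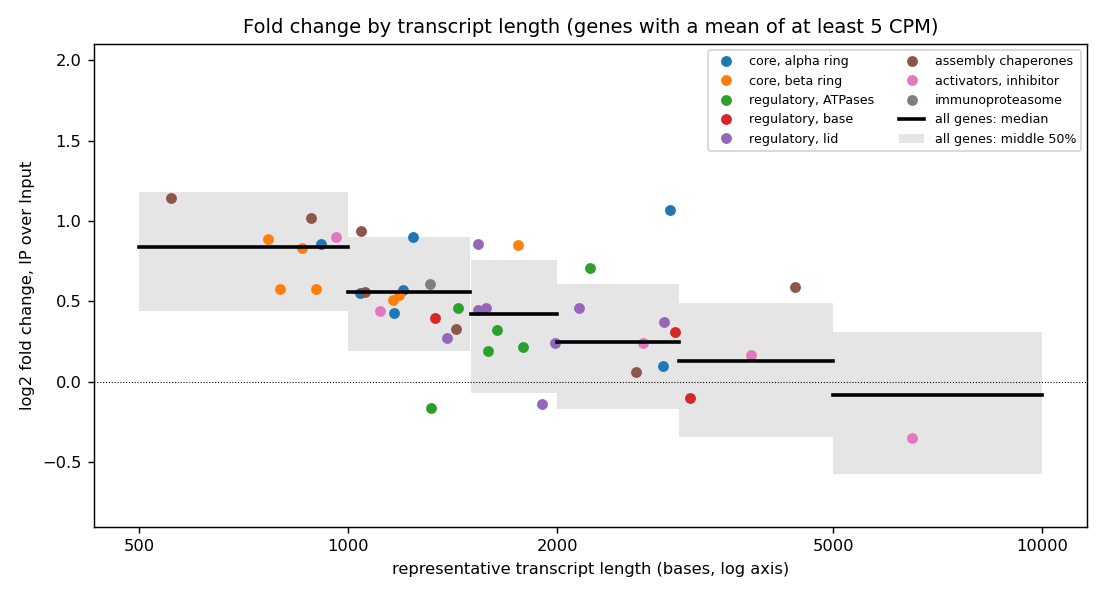
Log2 fold change (IP over Input, y axis) against principal transcript length (x axis, log scale) for proteasome genes averaging at least 5 CPM, coloured by role, over the median (black) and middle 50% (grey) of all protein-coding genes in each length class; the longest class is open-ended. The medians step down from 0.84 in the shortest class to -0.08 in the longest, and most proteasome genes lie inside the grey bands.

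Most alpha ring genes rose together. Psma2 showed the largest change, with 161, 122 and 144 CPM in IP replicates 1 to 3 and 71.7, 67.3 and 63.95 CPM in Input (a log2 fold change of 1.07 with an SE of 0.12, adjusted p = 9.30e-05). The groups were far apart, with the lowest IP library above the highest Input library. Psma7, the most abundant alpha gene per length, was 1.81-fold higher (adjusted p = 4.75e-05) and Psma5 1.86-fold higher (adjusted p = 6.34e-04). Psma1, Psma4 and Psma6 rose by log2 fold changes of 0.57, 0.43 and 0.55. The call of Psma4 was lost with the stricter filter, with upper-quartile scaling or library totals, and without any 1 Input library (adjusted p between 0.0656 and 0.244), and Psma1 (adjusted p = 0.0859) and Psma6 (adjusted p = 0.0589) lost it under library totals.

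Psma3 stood apart from its ring. It had 6.58, 7.32 and 8.10 CPM in IP and 6.46, 6.97 and 7.08 CPM in Input, overlapping groups at the lowest level of its ring (a log2 fold change of 0.10 with an SE of 0.22, adjusted p = 0.734). The sign was negative under the stricter filter, library totals and upper-quartile scaling. The Psma3 transcript shares 22.0% of its 50-base stretches with other annotated genes, and those of Psma4 and Psma5, both called higher, share 31.5 and 55.4%. Reads that did not align uniquely are listed apart from the genes in the deposited files.

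All 7 constitutive beta ring genes rose, against 23.3% of all genes tested, by log2 fold changes of 0.51 to 0.89. Psmb3, a structural beta subunit, rose most: 36.6, 20.8 and 25.2 CPM in IP and 14.8, 15.4 and 14.3 CPM in Input (0.89, SE 0.21, adjusted p = 0.00663). IP replicate 1 was the highest there and all IP values were above all Input values. Psmb1 (1.80-fold) and Psmb2 (1.78-fold), also structural, followed, with adjusted p of 8.33e-05 and 5.48e-04. Psmb4 rose 1.46-fold (adjusted p = 0.00204, and 0.0630 under library totals).

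The cutting subunits Psmb5, Psmb6 and Psmb7, which cleave after hydrophobic, acidic and basic residues in turn, rose by log2 fold changes of 0.51 to 0.58. Psmb5 had 26.8, 46.4 and 32.4 CPM in IP and 26.1, 22.5 and 22.0 CPM in Input (0.58, SE 0.20, adjusted p = 0.0377). IP replicate 1 was close to Input replicate 1, and IP replicate 2 stood highest. The call was lost under 8 of 14 alternatives, among them every scaling other than TMM, the stricter filter, and leaving out IP replicate 2 or any 1 Input library (adjusted p up to 0.214).

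Psmb6 had 82.5, 115 and 86.6 CPM in IP and 68.4, 58.8 and 62.4 CPM in Input (0.58, SE 0.14, adjusted p = 0.00678). Psmb7 had 145, 165 and 136 CPM in IP and 108, 99.1 and 106 CPM in Input (0.51, SE 0.10, adjusted p = 0.00249). For both, every IP library exceeded every Input library, and both calls were lost under library totals only (adjusted p = 0.0910 and 0.0677). The gene Nek6, on the opposite strand, overlaps 34.9% of the Psmb7 transcript, and the strand setting of the counting was not given in the sources used here.

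The immunoproteasome split. Psmb8, which takes the place of Psmb5, had 29, 1 and 1 counts (0.580, 0.0218 and 0.0235 CPM) in IP and 23, 28 and 42 counts (0.901, 0.539 and 0.804 CPM) in Input. Psmb9, which takes the place of Psmb6, had 24, 6 and 0 counts (0.480, 0.131 and 0 CPM) in IP and 12, 47 and 64 counts (0.470, 0.905 and 1.23 CPM) in Input. Both lay at the edge of detection, and IP replicate 1 reached into the Input range while the other two IP libraries did not. Neither was called (Psmb8 -1.81, SE 1.19, adjusted p = 0.241, and Psmb9 -2.07, SE 1.19, adjusted p = 0.182). Without IP replicate 1 both were lower in IP (Psmb8 -4.86, adjusted p = 0.00388, and Psmb9 -3.65, adjusted p = 0.0298), as they were with limma-voom (adjusted p = 0.0457 and 0.0462). IP replicate 1 thus decided the edgeR call of both genes.

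Psmb10, which takes the place of Psmb7, behaved otherwise. It had 32.7, 35.7 and 34.2 CPM in IP and 25.2, 19.7 and 22.6 CPM in Input (0.61, SE 0.14, adjusted p = 0.00551, and 0.0627 under library totals). The groups did not overlap and the IP libraries were tightly grouped. Per transcript length, Psmb10 stood at 20, 19.1 and 22.2% of Psmb7 in IP and 20.6, 17.6 and 18.9% in Input. Psmb8 stood at 1.20, 0.0259 and 0.0401% of Psmb5 in IP and 1.91, 1.33 and 2.02% in Input, and Psmb9 at 0.343, 0.0672 and 0% of Psmb6 in IP and 0.406, 0.909 and 1.16% in Input. The last value rests on 0 counts.

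**Figure D4:**
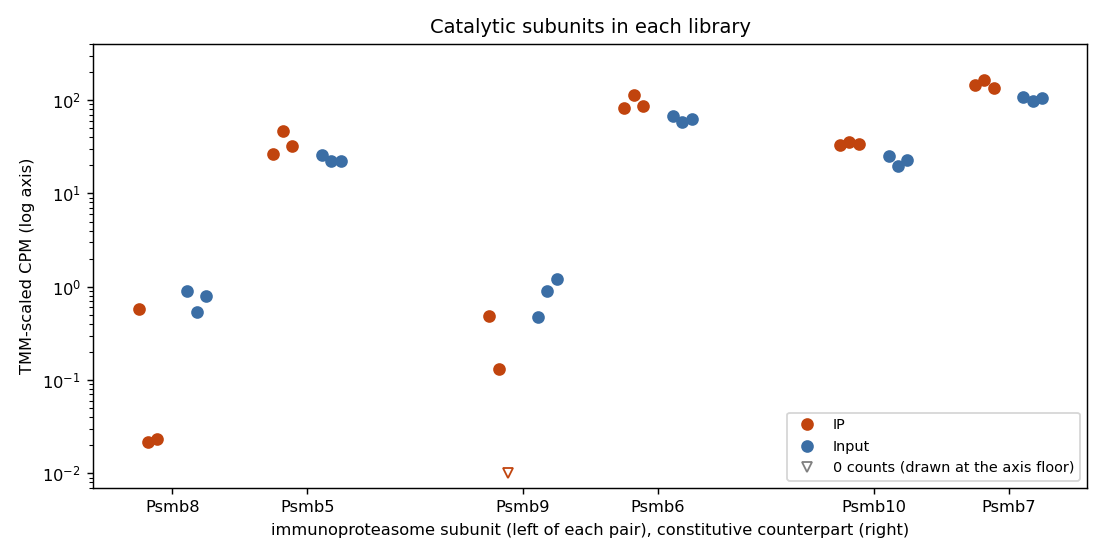
TMM-scaled CPM (y axis, log scale) of each immunoproteasome subunit and its constitutive counterpart (x axis) in every IP and Input library; an open triangle marks 0 counts. Psmb8 and Psmb9 lie below 1.3 CPM in every library, and Psmb10 lies between 19.7 and 35.7 CPM.

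Of 14 microglial markers 11 were lower in IP, where 24.3% of all genes tested were. The 14 markers summed to 11.4 to 12.6 CPM in IP and 68.0 to 78.5 CPM in Input, a level that was alike in the 3 IP libraries. IP replicate 1 was the highest IP library, as for Psmb8 and Psmb9, for 4 of the 14: the protease gene Ctss (77, 1 and 4 counts in IP replicates 1 to 3), the receptor gene P2ry12 (69, 1 and 10), Tmem119 (20, 6 and 4) and Itgam (27, 8 and 7). IP replicates 2 and 3 were each highest for 5, and C1qc, Laptm5 and Trem2 were at 0 in IP replicate 1. Of 12 genes of antigen processing and interferon signalling 5 were lower in IP, where 24.3% of all genes tested were, and 7 were not called. Their median was -1.27, and their summed level was 59.1 to 91.0 CPM in IP and 102 to 104 CPM in Input. IP replicate 1 was the highest IP library for 4 of these 12, among them H2-K1 (89, 3 and 10 counts), Irf1 (53, 13 and 4) and B2m (1489, 615 and 577). IP replicate 2 was highest for 3 and IP replicate 3 for 4. Among the latter were Tap2 (3, 3 and 27 counts), Erap1 (16, 38 and 89) and H2-D1 (138, 148 and 208). Tap1, a peptide transporter gene, had 0, 1 and 0 counts in IP and 6, 37 and 19 in Input. On the opposite strand, Tap1 overlaps 15.7% of the Psmb9 transcript and Gm20496 overlaps 11.4% of the Psmb8 transcript. With the strand setting of the counting not given, the effect of these overlaps on the low counts is unknown. The histocompatibility gene H2-D1 was lower in IP (-1.29, adjusted p = 0.00481). The part of microglial or other non-neuronal RNA in the Psmb8 and Psmb9 counts was not tested. In bulk libraries fewer cells of a type and less RNA per cell cannot be told apart.

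The promoters of these exchangeable pairs are shown because Psmb5 and Psmb8, and Psmb6 and Psmb9, fill the same place in the ring but differ widely in level. Sequences are from RefSeq (GRCm38.p6), 250 bases before to 50 after the start that RefSeq gives, and 41 of the 49 genes had an entry. Psmb5 lay at chr14:54617946-54618245 on the minus strand, Psmb8 lay at chr17:34197945-34198244 on the plus strand, Psmb6 lay at chr11:70525107-70525406 on the plus strand and Psmb9 lay at chr17:34187281-34187580 on the minus strand. The windows of Psmb8 and Psmb9 lie inside the GENCODE genes, whose starts are further upstream. Capitals mark matches, on either strand, to any of 7 motifs. The antioxidant-response-like element was searched as TGACNNNGC and the GC box as GGGCGG. The motif bound by ETS factors was searched as CCGGAAGT and the gamma-interferon-like site as TTCNNNGAA. The others were the CCAAT box, the TATA box (TATAAA) and an interferon-stimulated response element.

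Psmb5: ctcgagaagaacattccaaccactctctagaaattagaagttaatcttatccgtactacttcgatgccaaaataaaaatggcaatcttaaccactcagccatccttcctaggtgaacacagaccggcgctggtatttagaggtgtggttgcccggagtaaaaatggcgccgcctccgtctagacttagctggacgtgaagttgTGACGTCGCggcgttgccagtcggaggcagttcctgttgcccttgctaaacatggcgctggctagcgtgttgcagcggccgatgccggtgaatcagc
Psmb8: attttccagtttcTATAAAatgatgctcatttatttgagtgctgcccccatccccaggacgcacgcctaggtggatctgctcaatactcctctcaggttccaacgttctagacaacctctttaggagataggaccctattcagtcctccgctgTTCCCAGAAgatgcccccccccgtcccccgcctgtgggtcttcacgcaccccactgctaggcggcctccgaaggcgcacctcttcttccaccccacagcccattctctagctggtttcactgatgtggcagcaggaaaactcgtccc
Psmb6: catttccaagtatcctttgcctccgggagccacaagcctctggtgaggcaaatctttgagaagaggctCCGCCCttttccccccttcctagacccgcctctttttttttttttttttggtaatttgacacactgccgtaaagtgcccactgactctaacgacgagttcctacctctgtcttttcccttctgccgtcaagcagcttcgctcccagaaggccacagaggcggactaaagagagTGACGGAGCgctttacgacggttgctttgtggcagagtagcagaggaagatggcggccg
Psmb9: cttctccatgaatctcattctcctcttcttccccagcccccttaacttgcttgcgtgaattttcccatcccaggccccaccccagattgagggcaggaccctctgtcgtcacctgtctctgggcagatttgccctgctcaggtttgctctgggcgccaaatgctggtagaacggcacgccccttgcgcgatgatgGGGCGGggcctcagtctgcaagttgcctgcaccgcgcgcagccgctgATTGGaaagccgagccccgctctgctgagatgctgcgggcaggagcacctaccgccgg

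Of these 7 motifs, the windows of Psmb5 and Psmb6 each held 1 antioxidant-response-like match, at bases 204 to 212 and 242 to 250, and Psmb6 also a GC box. The Psmb8 window held 1 TATAAA and 1 match to TTCNNNGAA, at bases 154 to 162, and the Psmb9 window a GC box and a reversed CCAAT. The reversed ETS motif and TTCNNNGAA can share the letters TTC, and a match is a description of letters only. Over the 41 genes, the antioxidant-response-like element was found in 14.6%, against 14% of all 27025 genes with a promoter and 16.6% of 11586 genes tested here. The ETS motif was found in 22.0% of proteasome genes, against 4.31% of all genes and 7.87% of genes tested. It stood in 5 of 14 regulatory and 1 of 11 core particle genes. The GC box was found in 56.1% of proteasome genes and 66.2% of genes tested, and the interferon-stimulated response element in 12.2% of proteasome genes and 3.49% of genes tested.

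Of the 9 genes that hold the ETS motif, Psma6, Psme3 and Psmg3 were higher in IP. The others, Psmc1, Psmc2, Psmd6, Psmd12, Psmd13 and Psme4, were not called. Over all proteasome genes tested, 32 of 48 were higher. That count takes in genes without a promoter entry, which were not searched. They are Psmb1, Psmb2, Psmb7, Psmc3, Psmd3, Psmd7 and Psmg2, all higher, and Psma8, not called. A link between the motif and the change was not tested. Psmg3, an assembly chaperone, was higher in IP, and Psmd12, a lid subunit, was not called. Their windows are shown for that contrast: Psmg3 lay at chr5:139826845-139827144 on the minus strand and Psmd12 lay at chr11:107479278-107479577 on the plus strand. The ETS match lies at bases 255 to 262 in Psmg3 and, reversed, at bases 233 to 240 in Psmd12. The Psmd12 window also holds GC boxes and, at bases 4 to 12, a reversed antioxidant-response-like match.

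Psmg3: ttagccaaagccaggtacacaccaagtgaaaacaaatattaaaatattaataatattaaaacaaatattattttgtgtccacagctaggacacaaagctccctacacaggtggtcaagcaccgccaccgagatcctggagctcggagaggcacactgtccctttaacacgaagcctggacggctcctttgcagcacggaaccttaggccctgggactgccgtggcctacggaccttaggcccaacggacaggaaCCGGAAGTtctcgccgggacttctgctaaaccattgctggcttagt
Psmd12: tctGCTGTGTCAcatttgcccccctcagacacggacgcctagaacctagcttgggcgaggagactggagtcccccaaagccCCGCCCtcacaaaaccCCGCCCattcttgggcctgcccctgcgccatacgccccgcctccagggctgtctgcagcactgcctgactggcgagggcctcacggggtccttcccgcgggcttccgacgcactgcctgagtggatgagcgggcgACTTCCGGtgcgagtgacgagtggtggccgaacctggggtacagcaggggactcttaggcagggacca

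Tissue-restricted core subunits were near 0. Psma8, an alpha subunit of the testis, had 0, 30 and 72 counts in IP and 9, 8 and 18 in Input. Psmb11, a beta subunit of the thymus, had 0, 0 and 10 counts in IP and 0 in every Input library, too few to be tested. Psma8 spread widely between IP libraries and was not called (1.46, SE 1.34, adjusted p = 0.397). Its value was 2.06 without IP replicate 1 (adjusted p = 0.0499) and -0.38 with limma-voom.

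The 6 ATPase genes of the regulatory particle differed among themselves. Psmc6 rose most, with 80.6, 73.8 and 63.4 CPM in IP and 43.3, 45.7 and 43.9 CPM in Input (0.71, SE 0.12, adjusted p = 9.54e-04). Psmc5, the most abundant regulatory gene per length, had 291, 313 and 293 CPM in IP and 338, 330 and 334 CPM in Input (-0.16, SE 0.07, adjusted p = 0.0979). All IP values of Psmc5 were below all Input values, the opposite order to Psmc6, though both proteins sit in the same ATPase ring. Psmc5 was called lower under upper-quartile scaling, library totals, the relative log expression scaling, the stricter filter and DESeq2 (adjusted p between 0.00447 and 0.0423).

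Psmc3 (1.25-fold, adjusted p = 0.0240) and Psmc4 (1.38-fold, adjusted p = 0.00902) rose, and neither call held under library totals, upper-quartile scaling or the stricter filter (adjusted p between 0.0574 and 0.540), Psmc3 also without IP replicate 3, Input replicate 2 or Input replicate 3 (adjusted p between 0.0547 and 0.116). Psmc1 (0.19, adjusted p = 0.185) and Psmc2 (0.22, adjusted p = 0.0551) did not pass, and their signs were negative under library totals. Without IP replicate 1 Psmc1 was called higher (0.29, adjusted p = 0.0154), and so was Psmc2 without IP replicate 3 (0.27, adjusted p = 0.0364) and with limma-voom (adjusted p = 0.0471).

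The non-ATPase genes of the base changed little. Psmd4, a ubiquitin receptor, had 86.7, 117 and 86.3 CPM in IP and 81.7, 64.4 and 73.8 CPM in Input (0.40, SE 0.14, adjusted p = 0.0444). Psmd1, a scaffold subunit, had 158, 161 and 159 CPM in IP and 178, 165 and 168 CPM in Input (-0.10, SE 0.08, adjusted p = 0.335). The Psmd4 groups were separated by less than 5 CPM and the Psmd1 groups ran in the opposite order. Psmd2, the other scaffold, was 1.24-fold higher (adjusted p = 0.0330). The calls of Psmd4 and Psmd2 were lost under 8 and 9 of 14 alternatives, including without IP replicate 2 or any 1 Input library (adjusted p between 0.0518 and 0.652 over all of these alternatives).

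In the lid, 5 of 8 genes rose, against 23.3% of all genes tested. Psmd8 rose most, with 128, 123 and 108 CPM in IP and 75.8, 62.7 and 58.8 CPM in Input (0.86, SE 0.12, adjusted p = 4.21e-04). Psmd12 had 135, 145.7 and 131 CPM in IP and 149, 146.4 and 157 CPM in Input (-0.14, SE 0.08, adjusted p = 0.213). For Psmd8 the groups lay far apart, and for Psmd12 the highest IP library came just under the lowest Input library. Psmd14, the deubiquitinase of the lid, rose 1.37-fold (adjusted p = 0.0184). Psmd3, Psmd7 and Psmd11 rose by log2 fold changes of 0.46, 0.46 and 0.37, while Psmd6 (0.27, adjusted p = 0.0615) and Psmd13 (0.24, adjusted p = 0.149) did not pass. The calls of Psmd3, Psmd7, Psmd11 and Psmd14 were lost under library totals, upper-quartile scaling or the stricter filter, and those of Psmd3, Psmd11 and Psmd14 also without some single libraries (adjusted p between 0.0511 and 0.425 in all). Without IP replicate 1 Psmd6 was called higher (0.37, adjusted p = 0.00624). Psmd1 and Psmd12 were called lower under the stricter filter, library totals and upper-quartile scaling (adjusted p between 0.0117 and 0.0204).

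Assembly chaperones rose in 5 of 7 cases, against 23.3% of all genes tested. Psmg1 and Psmg2 act as a pair on the alpha ring, as do Psmg3 and Psmg4, and all 4 rose. Their transcripts are short. Up to 1000 bases (Psmg3 and Psmg4) 71.5% of all genes were higher, and from 1001 to 1500 bases (Psmg1 and Psmg2) 55.4% were. Psmg4 had 11.1, 11.7 and 6.42 CPM in IP and 5.56, 4.58 and 3.18 CPM in Input (1.14, SE 0.32, adjusted p = 0.0153, and 0.0672 without Input replicate 3). IP replicate 3 and Input replicate 3 were the lowest of their groups, and the groups did not overlap. Psmg3 rose 2.03-fold (adjusted p = 0.00125), Psmg1 1.92-fold (adjusted p = 0.00412) and Psmg2 1.47-fold (adjusted p = 0.0125). The call of Psmg2 was lost with the stricter filter, with upper-quartile scaling or library totals, and without Input replicate 1 or 3 (adjusted p between 0.0517 and 0.119).

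Chaperones of the regulatory base were less uniform. Psmd5 rose by a log2 fold change of 0.59 (adjusted p = 0.0112, and 0.0563 and 0.0723 under upper-quartile scaling and library totals). Psmd10 did not pass (0.33, adjusted p = 0.171). Psmd9 had 23.9, 29.6 and 16.5 CPM in IP and 22.7, 22.3 and 22.4 CPM in Input, with IP values on both sides of a narrow Input range (0.06, SE 0.20, adjusted p = 0.842). Its sign was negative under upper-quartile scaling, library totals, the stricter filter and without IP replicate 2.

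Alternative caps of the core diverged. Psme1 and Psme2 form an activator cap that interferon induces, and both rose. Psme2 had 15.2, 18.6 and 15.3 CPM in IP and 8.11, 9.32 and 8.84 CPM in Input (0.90, SE 0.18, adjusted p = 0.00300). The IP values of Psme2 lay well above the Input values. Those of the immunoproteasome gene Psmb10 also lay above Input, while Psmb8 and Psmb9, at the edge of detection, were not called. Psme1 rose 1.36-fold (adjusted p = 0.0277) but lost its call under 8 of 14 alternatives, among them without IP replicate 2 or 3 or any 1 Input library (adjusted p between 0.0572 and 0.316). Psme2b, a near copy of Psme2, averaged 1.32 CPM in IP against 0.813 CPM in Input and was not called (adjusted p = 0.418), and 59.3% of the 50-base stretches of Psme2 are shared with other genes.

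Psme3, the activator of the nucleus, was 1.18-fold higher (0.24, SE 0.08, adjusted p = 0.0299). Its call was lost when replicates were blocked by number (adjusted p = 0.0503), under the other scalings and the stricter filter, and without any 1 Input library (adjusted p between 0.0636 and 0.976). Psme4, a large single-chain activator, had 64.8, 52.5 and 38.5 CPM in IP and 61.7, 72.0 and 64.4 CPM in Input (-0.35, SE 0.17, adjusted p = 0.132). IP replicate 1 lay within the Input range of Psme4 and the other two IP libraries below it. Psme4 was called lower under upper-quartile scaling, library totals, the stricter filter and without IP replicate 1 (adjusted p between 0.0134 and 0.0370). Psmf1, described as an inhibitor of the core, did not pass (0.17, adjusted p = 0.406), and its sign was negative under upper-quartile scaling, library totals and without IP replicate 1.

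Levels of subunits can be compared per transcript length. In CPM per kilobase, Psma7 was the highest core gene, at 268 ± 16.96 in IP against 148 ± 4.17 in Input (± SD, n = 3), ahead of Psmb4 at 192 ± 24.0 in IP and 132 ± 1.53 in Input. Psmb2 (164 ± 25.8 in IP, 92.0 ± 3.30 in Input), Psma6 (140 ± 16.9 in IP, 95.8 ± 4.63 in Input) and Psmb7 (128 ± 13.0 in IP, 89.9 ± 3.92 in Input) followed, and among these 3 each differed from the next by less than the larger SD in IP. The lowest was Psma3, at 2.58 ± 0.266 in IP and 2.40 ± 0.116 in Input.

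Most core genes that share 5% or more of their sequence with others stood low, with Psmb7 the exception. Psma5, Psmb3 and Psmb5 share 55.4, 55.8 and 57.1% of their 50-base stretches with other annotated genes, and stood at 36.4, 35.9 and 39.2 CPM per kilobase in IP and 19.5, 19.4 and 26.2 in Input. Psma3 and Psma4 share 22.0 and 31.5%, and stood at 2.58 and 36.7 in IP and 2.40 and 27.3 in Input. In IP all of these lay below every core gene with under 5% shared. In Input Psma4 and Psmb5 lay above 1 such gene, Psma2. Psmb7 shares 28.1%, with Nek6, and stood at 128 in IP and 89.9 in Input. The regulatory gene Psmc1 shares 17.6% and stood at 104 in IP and 91.2 in Input. The part of sharing in these levels was not tested. Among the 8 core genes with under 5% shared, levels ran from 48.9 to 268 in IP and from 23.2 to 148 in Input. Among the 12 such regulatory genes they ran from 23.4 (Psmd3) to 227 (Psmc5) in IP and from 16.97 to 254 in Input. Read length was not given, so the shared part is approximate.

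**Figure D5:**
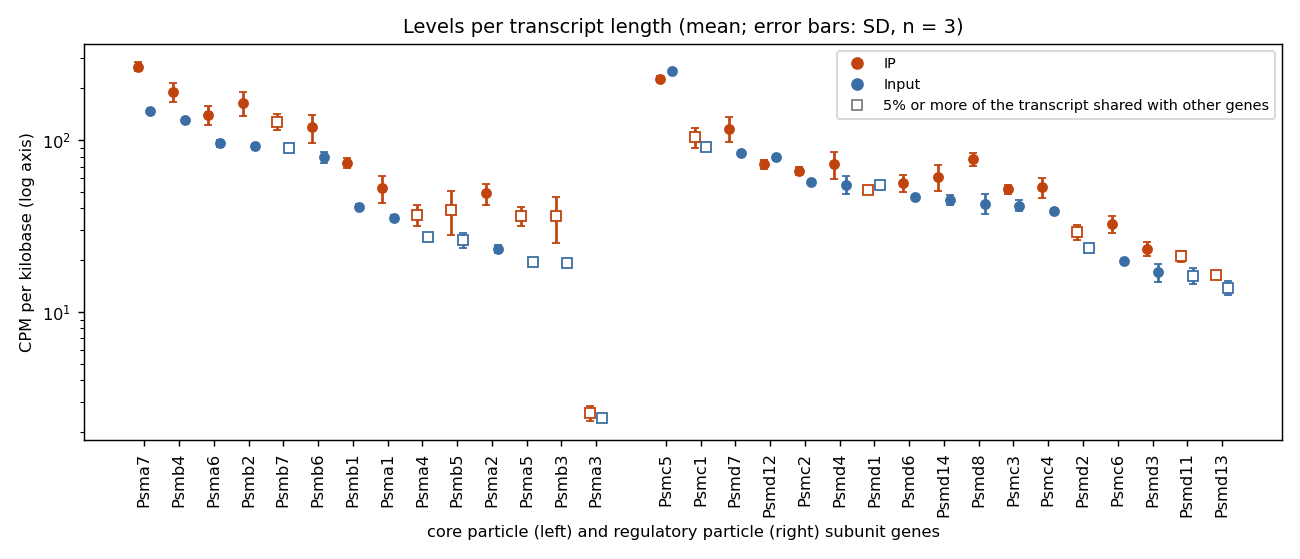
CPM per kilobase (y axis, log scale; mean and SD of 3 libraries) of core and regulatory particle genes (x axis), in order of their Input level, for IP and Input; open squares mark genes that share 5% or more of their 50-base stretches with other genes. Psma7 leads the core at 268 in IP and Psmc5 the regulatory particle at 227, while Psma3 is lowest at 2.58.

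The spread between IP libraries exceeded that between Input libraries. Over the 44 genes with at least 5 CPM the median coefficient of variation was 12.3% in IP and 5.42% in Input. IP replicate 2 was the highest IP library for 26 of these 44 genes, including 10 of 17 regulatory and 5 of 7 constitutive beta genes, while IP replicate 1 was highest for 13 and IP replicate 3 for 5. In Input, replicate 1 was highest for 26. Rn45s, the ribosomal RNA precursor, took 14.5% of assigned counts in IP replicate 1 and 9.38 and 9.74% in IP replicates 2 and 3. Its part in the spread was not tested.

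Of 17 proteasome genes outside the symbol rule, a list chosen with earlier results of these data known, 9 were higher in IP, where 23.3% of all genes tested were, and 8 were not called. The median was 0.40, and Ddi2 (-0.06) and Ngly1 (-0.09) lay below 0. Shfm1, which encodes the smallest lid subunit, had 85.4, 49.5 and 70.5 CPM in IP and 22.2, 21.7 and 21.3 CPM in Input (1.66, SE 0.19, adjusted p = 1.13e-04). Pomp, the maturation factor of the core, had 345, 307 and 344 CPM in IP and 166, 171 and 158 CPM in Input (1.01, SE 0.08, adjusted p = 2.03e-05). Both were far above Input in every IP library, and Shfm1 exceeded every member of the symbol rule in its called fold change. Nfe2l1, a transcription factor of proteasome genes, rose 1.37-fold (adjusted p = 0.00240). The ubiquitin receptor Adrm1 (0.43, adjusted p = 0.215) and the deubiquitinase Uchl5 (0.24, adjusted p = 0.183) did not pass, while the deubiquitinase Usp14 rose 1.51-fold (adjusted p = 0.00157).

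The genes are spread over 16 chromosomes, 9 of them on chromosome 11 (mm10, GENCODE vM21). Psmb5 (chromosome 14, 54614119 to 54618022) and Psmb11 (chromosome 14, 54621433 to 54629556) lie close together, as do Psme1 (chromosome 14, 55578123 to 55581529) and Psme2 (chromosome 14, 55587441 to 55591113). Psmb8 (34197721 to 34201454) and Psmb9 (34181987 to 34187764) lie close together on chromosome 17. Neighbours differed: Psmb5 was among the called genes while Psmb11 was at or near 0. Both members of each other pair had changes of the same sign, with Psmb8 and Psmb9 not called.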

How the data were processed

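RNA-seq libraries of mouse thalamus (3 IP, 3 Input) were grouped by their titles. The authors deposited whole-number counts of reads for each gene. The submitters' processing notes name STAR 2.0.0e, HTSeq and mm10; the HTSeq version, strand setting and annotation are not given in the sources used here. The lines tied to no gene were left out. Of all counts in a file, they took 43.2 to 49.7% (IP) and 32.7 to 34.0% (Input) as not uniquely aligned, 8.44 to 9.39% (IP) and 14.8 to 15.9% (Input) as outside features, and 1.32 to 1.58% (IP) and 5.47 to 6.60% (Input) as ambiguous. Counts were fitted over the whole table in R 4.3.3 with edgeR 4.0.16 (filterByExpr with a minimum count of 10, trimmed mean of M-values, robust quasi-likelihood F-test, Benjamini-Hochberg adjustment over 16898 genes, threshold 0.05). Alternatives used limma 3.58.1, DESeq2 1.42.0, other scalings and filters, and each library left out. The procedure was tested on simulated data. Standard errors were derived from the F statistic, and folds are IP over Input.

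Same-numbered IP and Input libraries were run on 1 lane, per the descriptions in the labels, so the number was taken to pair them by sequencing lane. Deviations from group means correlated at 0.06, 0.04 and 0.01 for same-numbered libraries. Replicates differed by more than sampling noise (chi-square per degree of freedom 12.6 to 142), so each counted as 1 sample. Positions and principal transcripts are from GENCODE vM21 (the same build), and promoters from RefSeq. Values in every library are given for the immunoproteasome, tissue-specific and cutting subunits, for the highest and lowest fold change of each other class, and for members called lower. Other genes named with values were the rest of the members, and the 2 most changed called genes of each list with at least 5 CPM, or genes chosen after their values were seen; 1 gene this rule named is not reported here. The members and lists were chosen with earlier results of these data known.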

Additional observations from a re-analysis of the deposited data

How the results depend on the processing

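Library scaling moved the counts most. The number of proteasome genes called higher, 32 in the main comparison, was 18 under upper-quartile scaling, 12 under library totals and 19 under the stricter filter (at least 1 CPM in all 6 libraries), and the number called lower, 0 in the main comparison, was 4 under each of these. It was 1 under relative log expression scaling, 1 with DESeq2 and 2 with limma-voom. Over all genes, library totals called 2458 higher in place of 3930. The share of all genes called higher was 17.08% under upper-quartile scaling, 14.55% under library totals and 25.23% under the stricter filter. The share called lower was 29.48, 31.01 and 24.77% in that order. It was 25.45% under relative log expression scaling, 28.08% with DESeq2 and 30.26% with limma-voom. Higher calls made up 48.9% of all calls in the main comparison, 36.7% under upper-quartile scaling and 31.9% under library totals. Leaving out 1 library gave 21 to 35 proteasome genes higher (21 without Input replicate 3) and 0 to 3 lower (3 without IP replicate 1, namely Psmb8, Psmb9 and Psme4). Of all genes, 17.84 to 24.92% were then higher and 17.51 to 28.74% lower. The core minus regulatory difference ran from 0.23 to 0.40 when 1 library was left out and from 0.24 to 0.27 under the other alternatives. A change of scaling can hardly move this difference.

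With the replicate block, 31 proteasome genes were higher and 0 lower, against 22.45 and 23.9% of all genes. The core minus regulatory difference was 0.24, and Psme3 was the 1 proteasome gene whose call the block changed. Signs turned for genes that were not called: Psma3 (-0.08 under upper-quartile scaling, -0.13 under library totals, -0.07 under the stricter filter), Psmd9 (-0.12, -0.18 and -0.11 under the same, and -0.14 without IP replicate 2), Psmf1 (-0.01 under upper-quartile scaling, -0.08 under library totals and from -0.00 to 0.30 when 1 library was left out, lowest without IP replicate 1), Psmc1 (-0.05) and Psmc2 (-0.02) under library totals, and Psma8 (-0.38 with limma-voom). Of 668 single-gene comparisons with an alternative, 543 kept the direction and the side of the threshold, 88 lost the call, 24 gained one and 13 changed sign. The cause was not tested. Depth limits Psmb8, Psmb9, Psma8, Psmb11 and Psme2b, which had at most 106 counts in any library.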
